A study of Mus musculus with 12 samples.

Results

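The 32 genes described here carry out or control the building of fatty acids and triglycerides, and were listed by name in 5 steps: 3 regulators, 7 genes of carbon and NADPH supply, 4 of synthesis, 9 of elongation and desaturation and 9 of esterification. The count table held 56205 genes, of which 13416 passed the filter on low counts, among them 32 of the 32 listed genes. RNA from whole livers of 12 ob/ob mice, all stated to be male, was poly(A)-selected and sequenced, with 1 library per mouse. The Xist and Ddx3y counts of 1 library, given below, go against its stated sex. All 12 mice carried the Lep ob mutation on the B6.Cg background, so the controls too lacked leptin, the satiety hormone of fat tissue, without which mice overeat and become obese. They were 8 to 10 weeks old when treatment began. The FLO group (n = 6) ate standard chow, and the fibrotic group (n = 6) ate the same chow and received DL-ethionine, the ethyl analogue of methionine. The labels disagree on the treatment, with 0.165% in drinking water for 2 weeks in some fields and an injection of 0.15% in another, and the study's methods give a shorter course in drinking water. The comparison asks how ethionine altered the livers of mice that were already steatotic. No lean mouse served as a reference. The group name fibrotic comes from the sample titles, and the study reported no difference in Col1a1 level in ethionine-treated ob/ob mice.

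In a fed liver, sugar is turned into fat in steps. Citrate leaves the mitochondrion and is cut to acetyl-CoA, acetyl-CoA carboxylase and fatty acid synthase join these units into palmitate with NADPH as reductant, elongases and desaturases lengthen and unsaturate the chain, and acyltransferases attach the chains to glycerol. Insulin acts on this program largely through SREBP-1c, sugar through ChREBP and oxysterols through LXR, and in ob/ob mice high insulin and overeating keep the program active.

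Sequences upstream of 38 transcription starts of 26 of the 32 genes were found in RefSeq (GRCm38.p6), and 1 window per step is shown because these genes' levels are the ones compared below. Each window holds the 250 bases before a start, written 5′ to 3′ on the gene's strand. Capitals mark matches on either strand to the sterol regulatory element TCACNCCAC, the CCAAT box CCAAT, the E-box CACGTG, the carbohydrate response element (CACGNG, 5 bases of any kind and CNCGTG) or the GC box GGGCGG. The E-box and the carbohydrate response element share their outer letters and can overlap, as can neighbouring GC boxes. The windows are chr11:60210472-60210721 (minus strand) for a start inside Srebf1, chr3:89136373-89136622 (plus strand) for a start inside Pklr, chr11:120824548-120824797 (minus strand) for Fasn, chr9:77917115-77917364 (plus strand) for Elovl5 and chr2:26604418-26604667 (minus strand) for Agpat2.
Srebf1: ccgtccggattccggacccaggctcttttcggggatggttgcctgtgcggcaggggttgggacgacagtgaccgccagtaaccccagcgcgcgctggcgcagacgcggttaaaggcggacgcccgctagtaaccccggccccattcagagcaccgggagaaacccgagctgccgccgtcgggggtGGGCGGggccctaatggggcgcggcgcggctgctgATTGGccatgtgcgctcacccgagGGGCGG
Pklr: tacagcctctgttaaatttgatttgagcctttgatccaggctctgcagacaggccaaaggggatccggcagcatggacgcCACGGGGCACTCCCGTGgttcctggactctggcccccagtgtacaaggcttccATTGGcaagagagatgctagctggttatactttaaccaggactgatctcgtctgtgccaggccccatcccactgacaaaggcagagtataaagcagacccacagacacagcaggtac
Fasn: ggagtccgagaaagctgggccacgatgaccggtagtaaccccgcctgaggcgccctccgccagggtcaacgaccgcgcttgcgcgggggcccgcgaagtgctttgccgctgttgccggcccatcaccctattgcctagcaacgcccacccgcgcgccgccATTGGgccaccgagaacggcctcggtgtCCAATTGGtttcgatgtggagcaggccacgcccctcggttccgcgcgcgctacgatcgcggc
Elovl5: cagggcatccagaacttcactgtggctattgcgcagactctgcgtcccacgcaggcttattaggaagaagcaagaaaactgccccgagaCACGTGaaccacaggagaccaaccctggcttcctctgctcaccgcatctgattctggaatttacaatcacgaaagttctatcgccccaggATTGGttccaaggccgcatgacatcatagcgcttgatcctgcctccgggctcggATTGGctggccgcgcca
Agpat2: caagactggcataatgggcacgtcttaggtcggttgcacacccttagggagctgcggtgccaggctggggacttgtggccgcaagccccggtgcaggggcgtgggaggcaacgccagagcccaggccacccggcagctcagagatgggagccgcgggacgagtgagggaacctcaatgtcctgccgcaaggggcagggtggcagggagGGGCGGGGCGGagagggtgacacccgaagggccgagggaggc
The Pklr window, upstream of liver pyruvate kinase, held the carbohydrate response element, the sequence class that ChREBP binds, and was the only member window with it (1 of 38, 2.63%, against 0.0396% of all 32851 windows of that length). CCAAT boxes stood in 16 member windows (42.1%, against 33.8% of all windows), as in the 3 matches before Fasn, 1 pair of which overlap. GC boxes stood in 18 (47.4% against 32.7%), E-boxes in 4 (10.5% against 6.02%) and the sterol regulatory element in 1, upstream of a Mlxipl start (2.63% against 1.05%). A match describes letters only, and a window without one says nothing of a factor's action. Scd1, Scd2, Elovl3, Fads1, Dgat1 and Dgat2 are given by name without a sequence.

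Libraries held 17815568 to 24814263 counts. A first principal component with 59.7% of the variance separated the groups, with fibrotic replicate 4 farthest from the FLO libraries. FLO replicate 3 held 3773 counts of Xist, an RNA of female cells, against 0 to 4 in the other libraries, and 4 counts of the Y-linked Ddx3y against 556 to 977, which goes against its label as a male. FLO replicate 3 was also the highest of its group for 22 of the 32 genes, and fibrotic replicate 4 the lowest of its group for 20. Counts are therefore also given without these libraries. Hepatocyte markers were abundant, with albumin (Alb) at 40385 to 70845 CPM (counts scaled to a common library size) in every library. Lep itself had 0 to 10 counts per library, and since liver makes little of it, its level does not check the genotype.

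Livers of ethionine-treated mice held less mRNA for many genes that supply, desaturate and elongate fatty acids. Rises were no more frequent among the 32 genes than among all tested genes. Of the 32 genes, 14 fell (43.8%, against 14.0% of all tested genes called lower), 5 rose (15.6%, against 15.9% called higher) and 13 were not called. In all, 19 were called (59.4%), against 29.9% of all tested genes. Falls were led by Scd1, the main hepatic stearoyl-CoA desaturase (12.3-fold), Pnpla3, a lipid droplet acylhydrolase (6.69-fold), Scd2, a related desaturase (4.65-fold), and Srebf1, which encodes SREBP-1 (4.49-fold). Rises were led by Elovl3, an elongase of very long chains (2.43-fold), Agpat2, which makes phosphatidic acid (2.31-fold), and Elovl1, another elongase (2.16-fold). The Elovl3 call was lost in 8 of 12 fits that left out 1 library, while those of Agpat2 and Elovl1 held in all 12. A call required an adjusted p of 0.01 or less and an absolute log2 fold change over 0.5 in edgeR's quasi-likelihood test, with Benjamini-Hochberg adjustment over the 13416 genes. In bulk tissue, fewer cells of a type and less RNA per cell cannot be told apart.

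**Figure D1:**
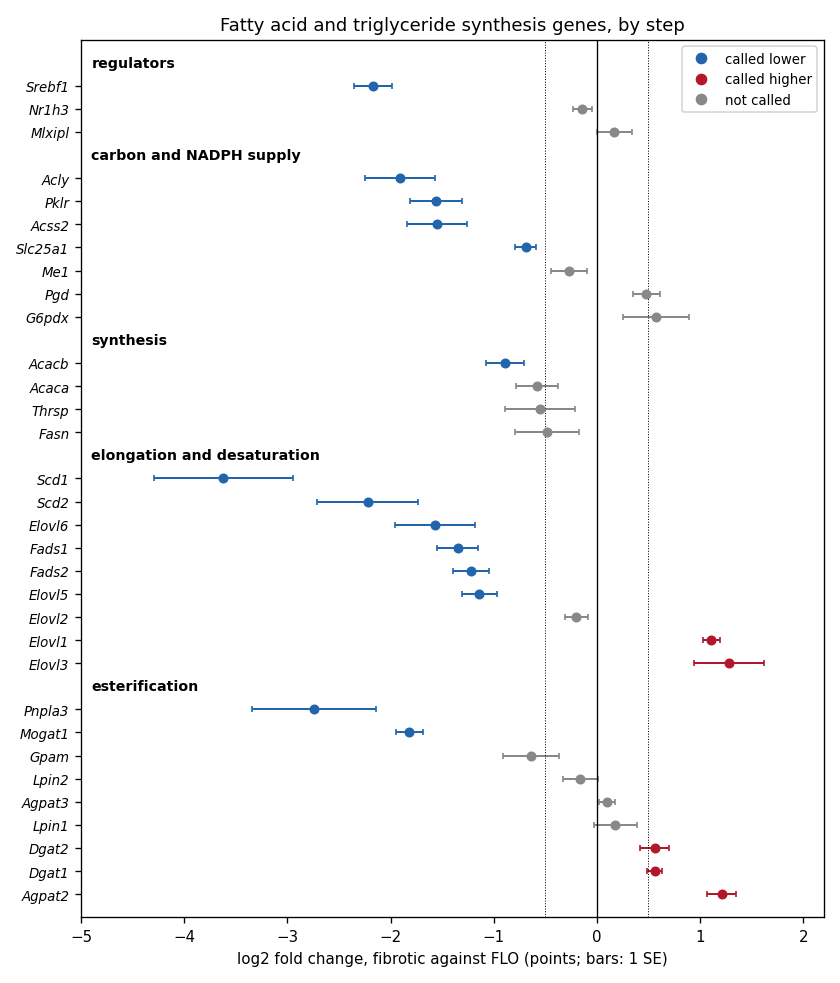
Log2 fold change of each of the 32 genes, fibrotic against FLO (x axis), grouped by step; points are edgeR estimates, bars are 1 standard error, and dotted lines mark 0.5 either way. Blue points (14) were called lower, red points (5) higher and grey points (13) not called, and 6 of the 9 elongation and desaturation genes lie to the left of -1.

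The plot of fold changes shows the calls by step, to be read beside the 29.9% of all tested genes called either way. Elongation and desaturation held 6 lower and 2 higher calls among 9 genes (88.9% called), with a median log2 fold change of -1.22. Carbon and NADPH supply held 4 lower and 0 higher calls among 7 genes (57.1%), with a median of -0.69. Esterification held 3 higher and 2 lower calls among 9 (55.6%, median 0.10). Synthesis proper held 1 lower call among 4 (25.0%, median -0.56), and the regulators 1 lower call among 3 (33.3%, median -0.14). The shares of synthesis and the regulators were near that of all tested genes. Over all 32 genes the median was -0.56, beside 0.03 over all tested genes. The CPM ranges of the groups did not overlap for 17 genes (53.1%, against 30.4% of all tested genes), 14 of them lower and 3 higher in the fibrotic group. Without FLO replicate 3 and fibrotic replicate 4 together, 14 genes were called lower and 6 higher, but the median came to -0.25. Without fibrotic replicate 3 alone, 3 genes were called higher.

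**Figure D2:**
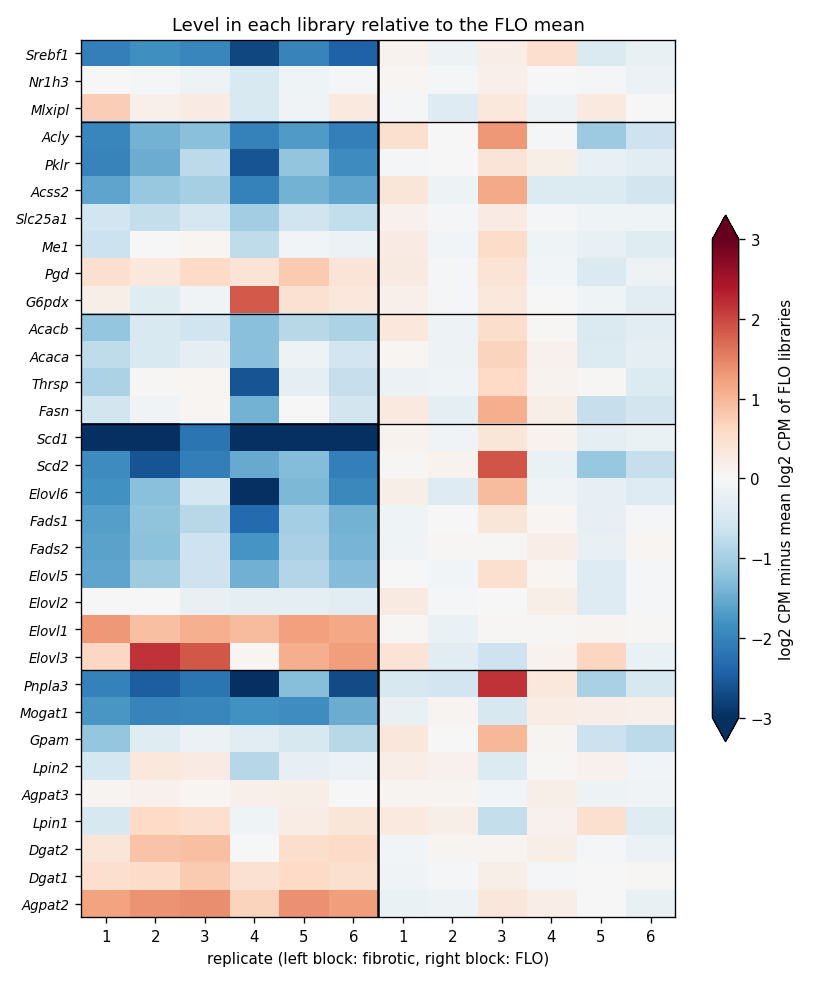
Level of each gene (rows, grouped by step) in each library (columns, replicates 1 to 6 of the fibrotic group on the left and of the FLO group on the right), as log2 CPM minus the mean log2 CPM of the FLO libraries; colours saturate at 3 either way. Scd1 is blue in 6 of 6 fibrotic libraries, fibrotic replicate 4 has the lowest level of its group for 20 genes, and FLO replicate 3 the highest of its group for 22.

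Summed over the 32 genes, the program took 2.58% to 4.25% of all counts in FLO libraries (median 3.15%) and 0.78% to 1.64% in fibrotic libraries (median 1.16%). A single gene carried most of that gap. Scd1 made up 60.4% to 64% of the summed CPM of the 32 genes in the FLO group and 3.25% to 27.5% in the fibrotic group. With Scd1 left out, the other genes took 0.979% to 1.68% of counts in FLO livers and 0.747% to 1.19% in fibrotic livers, ranges that overlap. The heat map of libraries shows the same spread gene by gene, and that fibrotic livers were not alike: replicate 3 had the highest level of its group for 16 genes and replicate 4 the lowest for 20.

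Among the regulators, Srebf1 (ENSMUSG00000020538, chr11:60199089-60222581) fell while the other regulators did not pass the test. Srebf1 stood at 38.7, 63.4 and 72.0 CPM (lowest, median and highest library) in the fibrotic group and at 191, 254 and 367 CPM in the FLO group. The highest fibrotic library was thus far below the lowest FLO library. The log2 fold change was -2.17 (SE 0.18, edgeR adjusted p = 2.21e-07), and Srebf1 was called in 12 of 12 fits that left out 1 library. Mlxipl, which encodes the sugar-responsive factor ChREBP, stood at 142, 223 and 328 CPM in the fibrotic group and at 149, 190.0 and 242 CPM in the FLO group (log2 fold change 0.17, SE 0.17, edgeR adjusted p = 0.421). Nr1h3, which encodes the oxysterol receptor LXRα, stood at 77.8, 100.4 and 108 CPM against 95.9, 107 and 120.1 CPM (log2 fold change -0.14, SE 0.09, edgeR adjusted p = 0.199). The sign for Nr1h3 depends on scaling, since its log2 fold change was 0.04 without normalization factors. The log2 ratio of Mlxipl to Srebf1 within a library ran from -1.06 to 0.33 in the FLO group and from 1.5 to 2.39 in the fibrotic group, a mean difference of 2.31 (exact two-sided permutation p = 0.00216, the smallest 6 against 6 can give, adjusted p = 0.013 over 12 ratios). This was a 4.96-fold change of the ratio, on a measure that library scaling does not enter.

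In carbon supply, 4 genes on the route to cytosolic acetyl-CoA fell, and the NADPH-producing genes were not called. Slc25a1, the carrier that exports citrate from mitochondria, stood at 164, 216 and 238 CPM in fibrotic libraries and at 310.0, 327 and 400.3 CPM in FLO libraries (log2 fold change -0.69, SE 0.10, edgeR adjusted p = 4.65e-05). Acly, ATP citrate lyase, which splits that citrate into acetyl-CoA, stood at 112, 132 and 197 CPM against 221, 456 and 1145 CPM (log2 fold change -1.91, SE 0.34, edgeR adjusted p = 0.000446). Its spread in the FLO group was wide and its highest value was FLO replicate 3, and without that library the log2 fold change was -1.54. Acss2, which makes acetyl-CoA from acetate, followed Acly with 67.8, 97.7 and 138 CPM against 187, 228 and 604 CPM (log2 fold change -1.55, SE 0.29, edgeR adjusted p = 0.000494). Their log2 ratio differed by 0.28 between groups (exact permutation p = 0.108, adjusted p = 0.162), although without FLO replicate 5 it differed by 0.42 (adjusted p = 0.0208). Pklr, liver pyruvate kinase, whose upstream window with the carbohydrate response element is printed above, stood at 108, 205 and 382 CPM against 524, 652 and 862 CPM (log2 fold change -1.56, SE 0.25, edgeR adjusted p = 0.000148). For these 4 genes the groups did not overlap in any library.

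The NADPH makers went without a call. Pgd, 6-phosphogluconate dehydrogenase of the pentose phosphate pathway, stood at 122, 134 and 169.9 CPM in the fibrotic group and at 72.7, 94.3 and 129 CPM in the FLO group. All 6 fibrotic libraries lay above the FLO median, and its log2 fold change of 0.48 (SE 0.13, edgeR adjusted p = 0.00524) missed the call on the fold limit alone. It was called in 5 of the 12 fits that left out 1 library. G6pdx, which encodes the first enzyme of that pathway, was scarce at 4.28, 6.52 and 19.7 CPM against 4.47, 5.46 and 6.93 CPM (log2 fold change 0.57, SE 0.32, edgeR adjusted p = 0.143). Its highest value was fibrotic replicate 4, without which the log2 fold change was 0.12. The Pgd to G6pdx ratio differed by 0.12 (exact permutation p = 0.814, adjusted p = 0.818), and without fibrotic replicate 4 by 0.42 (adjusted p = 0.026). Me1, cytosolic malic enzyme, ranged from 479 to 841 CPM in the fibrotic group and from 634 to 1188 CPM in the FLO group. Of its 50-base stretches 26.5% also occur in Gm7049 or Gm7329, so reads may be split between copies.

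Of the 4 genes of fatty acid synthesis itself, 1 fell and 3 were not called. Acacb, the mitochondrial acetyl-CoA carboxylase, whose malonyl-CoA restrains fatty acid oxidation, was the gene called. It stood at 95.5, 125 and 167 CPM in the fibrotic group and at 169.7, 220.2 and 333 CPM in the FLO group, without overlap (log2 fold change -0.89, SE 0.18, edgeR adjusted p = 0.00068). Acaca, the cytosolic carboxylase that feeds synthesis, stood at 99.3, 166 and 216 CPM against 181, 230.5 and 377 CPM (log2 fold change -0.58, SE 0.20, edgeR adjusted p = 0.023). DESeq2 called it (log2 fold change -0.60, adjusted p = 0.00784), so its call rests on the tool. Of its 50-base stretches 52.6% also occur in the pseudogene Gm5182, which had 0 to 47 counts per library. The log2 ratio of Acacb to Acaca differed by -0.29 between groups (exact permutation p = 0.0455, adjusted p = 0.0909), and passed without fibrotic replicate 2 or 4 (adjusted p = 0.0364 in each). Fasn, fatty acid synthase (ENSMUSG00000025153), whose upstream window with its 3 CCAAT matches is printed above, stood at 481, 1032 and 1323 CPM in the fibrotic group and at 794, 1243 and 2704 CPM in the FLO group (log2 fold change -0.48, SE 0.31, edgeR adjusted p = 0.21). Of the 6 fibrotic libraries, 5 lay within the FLO range, and fibrotic replicate 4 lay below it. Without FLO replicate 3, which held the highest value, the log2 fold change was -0.18. The Fasn to Acaca ratio differed by 0.16 (exact permutation p = 0.279, adjusted p = 0.335). Thrsp, the Spot 14 protein that tracks lipogenic activity, ranged from 219.9 to 1372 CPM in the fibrotic group and from 990.4 to 1989.7 CPM in the FLO group.

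**Figure D3:**
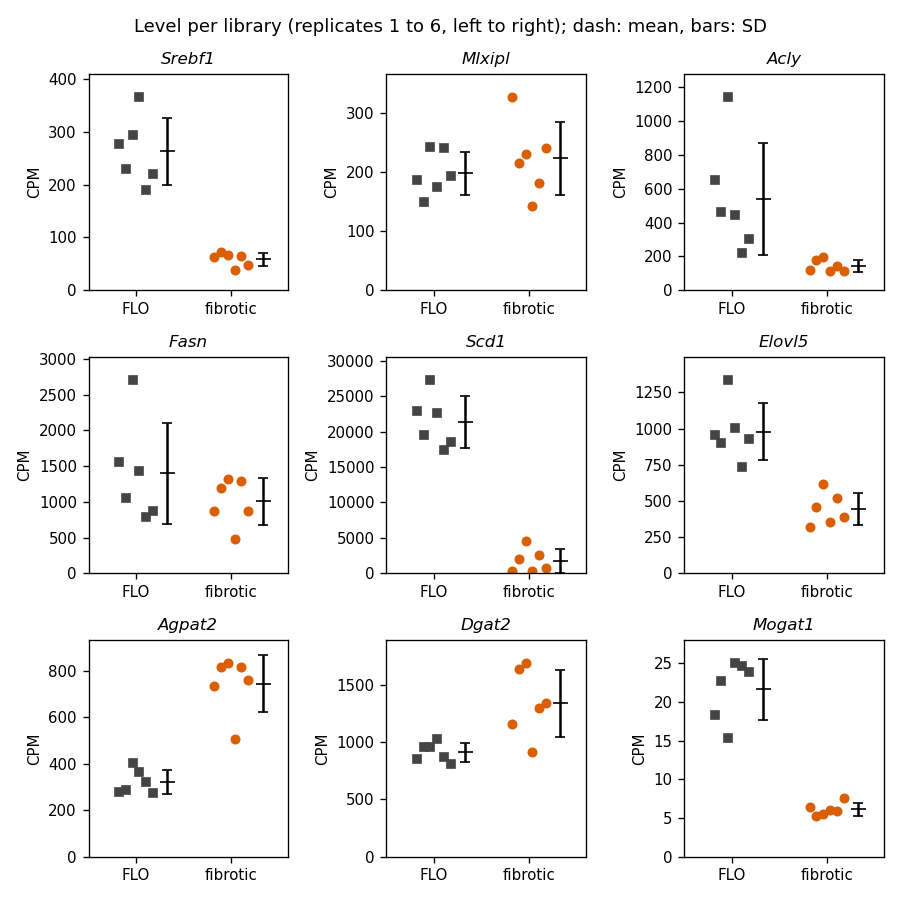
CPM of 9 genes in each library (FLO as squares, fibrotic as circles, replicates 1 to 6 from left to right within a group), on axes that start at 0; the dash and bars beside each group give the mean and SD of 6 libraries. Srebf1, Acly, Scd1, Elovl5 and Mogat1 lie lower and Agpat2 higher in all 6 fibrotic libraries than in any FLO library, while the groups overlap for Mlxipl, Fasn and Dgat2.

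The plot of levels per library sets Srebf1, Scd1 and Mogat1, with clear gaps between groups, beside Mlxipl and Fasn, with shared ranges. Desaturation held the largest fall among the 32 genes. Scd1 (ENSMUSG00000037071, chr19:44394455-44407879), which introduces the first double bond into palmitate and stearate, stood at 271, 1364 and 4591 CPM in the fibrotic group and at 17396, 21033 and 27275 CPM in the FLO group. The lowest FLO library was thus above every fibrotic library, while fibrotic libraries differed widely among themselves (SD of log2 CPM 1.73, against 0.24 in the FLO group). The log2 fold change was -3.62 (SE 0.67, edgeR adjusted p = 0.000692). Scd2, the desaturase that is scarce in adult liver, stood at 3.97, 6.06 and 9.62 CPM against 10.8, 22.5 and 87.8 CPM (log2 fold change -2.22, SE 0.49, edgeR adjusted p = 0.00241). Its highest value was FLO replicate 3, without which the log2 fold change was -1.54, and with the replicate number as a block it was no longer called (adjusted p = 0.0155). Of the 50-base stretches of Scd2, 4.01% also occur in other genes, Scd1 among them, so reads may be split between copies. The Scd2 to Scd1 log2 ratio was higher by 2.46 in the fibrotic group, without passing the threshold (exact permutation p = 0.0173, adjusted p = 0.0519). Leaving out FLO replicate 3, fibrotic replicate 2 or fibrotic replicate 3 brought its adjusted p to 0.039, 0.0364 and 0.0195.

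The desaturases of polyunsaturated chains fell together. Fads1, the delta-5 desaturase, stood at 106, 217 and 302 CPM in the fibrotic group and at 450.3, 530.4 and 692 CPM in the FLO group (log2 fold change -1.35, SE 0.20, edgeR adjusted p = 5.92e-05). Fads2, the delta-6 desaturase that acts before it, stood at 287, 398 and 643 CPM against 843, 1013 and 1131 CPM (log2 fold change -1.22, SE 0.17, edgeR adjusted p = 2.4e-05). Neither gene's groups overlapped, and the log2 ratio of Fads1 to Fads2 differed by -0.15 (exact permutation p = 0.279, adjusted p = 0.335).

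Elongases split in direction. Elovl5, which lengthens polyunsaturated chains and whose upstream window with an E-box is printed above, fell from 737, 943 and 1336 CPM to 323, 424 and 620.5 CPM without overlap (log2 fold change -1.14, SE 0.17, edgeR adjusted p = 4.58e-05). Elovl6, which extends palmitate to stearate, stood at 34.3, 115 and 236 CPM against 260.1, 304 and 659 CPM (log2 fold change -1.57, SE 0.39, edgeR adjusted p = 0.00471). Its call was lost without fibrotic replicate 1, 5 or 6, with adjusted p-values of 0.0121, 0.0103 and 0.0115, and with no filter on low counts (adjusted p = 0.0181). Elovl2, which acts on longer polyunsaturated chains, stood at 194, 206 and 245 CPM against 188, 244 and 293 CPM (log2 fold change -0.20, SE 0.11, edgeR adjusted p = 0.134). The log2 ratio of Elovl2 to Elovl6 was higher by 1.51 in the fibrotic group (exact permutation p = 0.00649, adjusted p = 0.026), while that of Elovl5 to Elovl6 differed by 0.55 (exact permutation p = 0.0801, adjusted p = 0.137).

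By contrast, Elovl1 and Elovl3, elongases of saturated very long chains, were called higher. Elovl1, which makes chains for sphingolipids, stood at 90.0, 105 and 119 CPM in the fibrotic group and at 41.8, 49.3 and 50.8 CPM in the FLO group (log2 fold change 1.11, SE 0.08, edgeR adjusted p = 8.75e-08). The lowest fibrotic library lay well above the highest FLO library, and the call held in 12 of 12 fits that left out 1 library. Elovl3, which is best known from brown fat and skin glands and is sexually dimorphic and rhythmic in mouse liver, stood at 50.7, 111 and 221 CPM against 31.9, 47.4 and 76.7 CPM (log2 fold change 1.28, SE 0.34, edgeR adjusted p = 0.00674). Fibrotic replicates 2 and 3 were the highest, FLO replicate 3, the library with Xist, was the lowest, and the ranges overlapped. The call for Elovl3 was lost in 8 of 12 fits that left out 1 library, with adjusted p-values up to 0.0168, with no filter on low counts (0.0252) and with the replicate number as a block (0.0555).

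**Figure D4:**
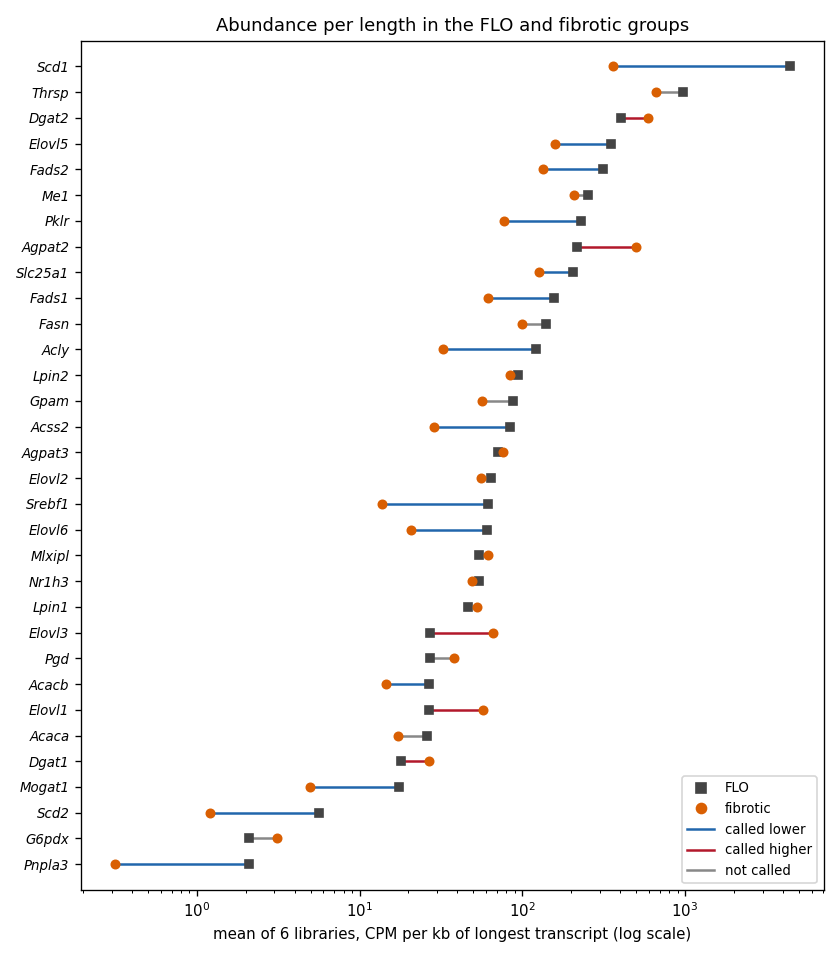
Mean CPM per kilobase of longest transcript (x axis, log scale) of each gene in the FLO group (squares) and in the fibrotic group (circles), with genes ordered by FLO level; line colour gives the call. Scd1 is the most abundant gene per length in the FLO group (4419.9) and lies below Thrsp, Dgat2 and Agpat2 in the fibrotic group (361).

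Levels of different genes can be set side by side only per transcript length, as in the plot of abundance per length. In FLO livers Scd1 led with a mean of 4419.9 CPM per kilobase, followed by Thrsp (968), Dgat2 (402), Elovl5 (351) and Fads2 (314). In fibrotic livers the order began with Thrsp (662), Dgat2 (592), Agpat2 (499) and Scd1 (360.5), on the same scale. Pnpla3 (0.314), Scd2 (1.21) and G6pdx (3.13) were the least abundant there.

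In esterification, genes of the main glycerol phosphate route rose or were not called, and the genes that fell act outside it. Gpam, the mitochondrial acyltransferase that starts the route, ranged from 225 to 444 CPM in the fibrotic group and from 289.5 to 994 CPM in the FLO group. Its log2 fold change was -0.64 (SE 0.27, edgeR adjusted p = 0.0596), with all 6 fibrotic libraries below the FLO median. Agpat2 (ENSMUSG00000026922), which adds the next chain to give phosphatidic acid and whose loss causes lipodystrophy, stood at 505, 786 and 832 CPM against 273, 304 and 404 CPM (log2 fold change 1.21, SE 0.14, edgeR adjusted p = 3.41e-06). Even fibrotic replicate 4, far below the rest of its group, was above every FLO library. Agpat3, a related acyltransferase, stood at 428, 456 and 481 CPM against 383, 424 and 478 CPM (log2 fold change 0.10, SE 0.08, edgeR adjusted p = 0.332). The log2 ratio of Agpat3 to Agpat2 was lower by 1.10 in the fibrotic group (exact permutation p = 0.00216, adjusted p = 0.013), with all 6 fibrotic libraries below every FLO library.

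The lipins, which remove phosphate from phosphatidic acid to give diacylglycerol, did not pass the test. Lpin1 stood at 180.2, 306 and 379 CPM in the fibrotic group and at 153, 277 and 347 CPM in the FLO group (log2 fold change 0.18, SE 0.21, edgeR adjusted p = 0.502). Lpin2 stood at 292, 457 and 651 CPM against 398, 556 and 599 CPM (log2 fold change -0.16, SE 0.17, edgeR adjusted p = 0.453). Their log2 ratio, Lpin2 to Lpin1, differed by -0.39 (exact permutation p = 0.026, adjusted p = 0.0623), and passed without fibrotic replicate 1 (adjusted p = 0.026) or FLO replicate 5 (adjusted p = 0.0208).

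The acyltransferases of the last step, which turn diacylglycerol into triglyceride, rose by similar amounts from very different levels. Dgat1 stood at 46.8, 49.0 and 58.4 CPM in the fibrotic group and at 31.6, 33.5 and 38.4 CPM in the FLO group, without overlap (log2 fold change 0.56, SE 0.07, edgeR adjusted p = 1.71e-05). Dgat2, which favours newly made fatty acids, stood at 912, 1318 and 1686 CPM against 806, 909 and 1022 CPM (log2 fold change 0.56, SE 0.14, edgeR adjusted p = 0.00311). Only fibrotic replicate 4 lay within the FLO range. Dgat2 lay close to the fold limit, and without fibrotic replicate 2 or 3 its log2 fold change was 0.49 and it was not called. The Dgat1 to Dgat2 log2 ratio differed by 0.03 between groups (exact permutation p = 0.818, adjusted p = 0.818), with a sign that turned without fibrotic replicate 4 (-0.05) or FLO replicate 4 (-0.01).

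Mogat1 and Pnpla3 fell from low levels. Mogat1, which makes diacylglycerol from monoacylglycerol, stood at 5.30, 5.96 and 7.54 CPM in the fibrotic group and at 15.3, 23.2 and 25.0 CPM in the FLO group, without overlap (log2 fold change -1.82, SE 0.13, edgeR adjusted p = 6.76e-08). Pnpla3, the mouse counterpart of the gene linked to human fatty liver, stood at 0.0936, 0.394 and 0.806 CPM against 1.01, 1.42 and 8.81 CPM (log2 fold change -2.74, SE 0.60, edgeR adjusted p = 0.00167). These are 2 to 16 counts per fibrotic library and 17 to 206 per FLO library, so counting error is large. The highest FLO value was replicate 3, without which the log2 fold change was -1.88 and Pnpla3 was still called.

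**Figure D5:**
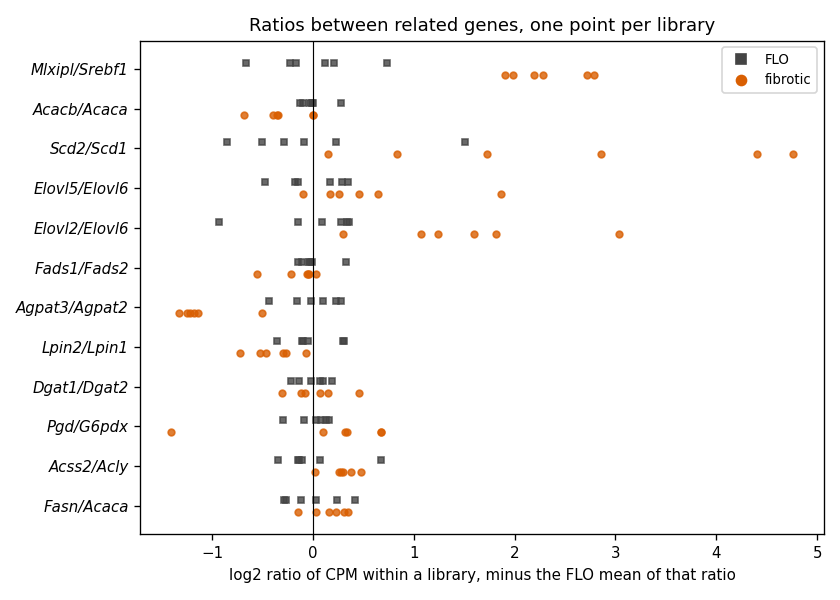
Log2 ratio of CPM between related genes within each library, minus the FLO mean of that ratio (x axis), for 12 ratios; squares are FLO libraries and circles fibrotic libraries. Mlxipl/Srebf1 and Agpat3/Agpat2 show no overlap between groups, Elovl2/Elovl6 nearly none, and Dgat1/Dgat2 full overlap around 0.

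The plot of ratios collects the 12 comparisons between related genes, of which 3 passed an adjusted p of 0.05: Mlxipl to Srebf1, Agpat3 to Agpat2 and Elovl2 to Elovl6. For the other 9, the adjusted p ran from 0.0519 upward, which does not show that the genes changed alike. With the replicate number as a block, the exact test cannot go below 0.03125, and the adjusted p of each of the 3 was 0.125.

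Among 65 other genes of the pathway, 59 passed the filter on low counts, and 11 rose and 6 fell, 28.8% of them against 29.9% of all tested genes. Their median log2 fold change was 0.07. Of the 6 falls, 5 lay in elongation and desaturation, among 15 genes tested (33.3%, against 14.0% of all tested genes called lower). The same step also held 3 of the 11 rises, and its median log2 fold change was 0.26, so it did not fall as a whole. Acyl-CoA synthetases were listed under this step, with Acsl3 and Acsl5 among its falls and Acsl4 among its rises. Acsl5, an acyl-CoA synthetase of liver, fell by 1.23 on the log2 scale (SE 0.13, edgeR adjusted p = 2.41e-06). Cyb5r3, the reductase that passes electrons to cytochrome b5 for the desaturases, fell by 1.03 (SE 0.09, edgeR adjusted p = 3.06e-07). The largest rises were of Mogat2, another monoacylglycerol acyltransferase (log2 fold change 2.30, SE 0.33, edgeR adjusted p = 6.76e-05), Acsl4, a synthetase that prefers arachidonate (1.91, SE 0.11, edgeR adjusted p = 4.42e-09), and Fads3, a desaturase of sphingoid bases (1.73, SE 0.20, edgeR adjusted p = 6.2e-06). Mogat2 rose where Mogat1 fell, to a mean of 19.2 ± 6.59 CPM from 3.89 ± 2.14 CPM (SD, n = 6).

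Markers of other liver cells shifted between groups to differing degrees, beside 29.9% of all tested genes called. Kupffer cell markers summed to 179 to 340.3 CPM in fibrotic libraries and 125 to 163 CPM in FLO libraries, with 4 of 6 called higher, and macrophage markers to 126 to 289 against 105 to 126 CPM, with 3 of 6 called higher. Cholangiocyte markers summed to 80.7 to 275 against 47.2 to 88.0 CPM (3 of 5 tested called higher) and endothelial markers to 118 to 162 against 164 to 189 CPM (1 of 6 called lower). Stellate cell markers summed to 218 to 326 against 196 to 266 CPM, with 1 of 6 called higher, and lymphocyte markers to 7.69 to 12.7 against 6.12 to 10.9 CPM, with 0 of 2 tested called. Hepatocyte markers summed to 49051 to 82293 against 72819 to 85344 CPM, with 1 called higher and 2 lower of 7. The part of these shifts in the levels of the 32 genes was not tested. Adipocytes use the same pathway. Their markers summed to 126 to 239 against 129.9 to 328 CPM with 0 of 3 tested called, and the defining markers Adipoq and Plin1 stood at or under 0.485 and 0.608 CPM in every library. Srebf1, Mlxipl, Acss2, Me1, G6pdx, Pklr, Elovl1, Elovl3, Elovl6, Agpat2, Agpat3 and Mogat1 share exon bases with genes on the opposite strand, and since the strand setting of the counting is not given in the sources used here, reads from such stretches cannot be told apart.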

How the data were processed

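The authors deposited 1 table of raw counts by Ensembl gene and did not normalize them. The submitters' processing notes name bcl2fastq, STAR 2.7.3a and mm10, and PISCES is the quantifier in the study's methods; the annotation and strand setting are not given in the sources used here. Groups and replicate numbers came from the sample titles. Per the labels, each group held 6 mice. Within a group every pair of libraries differed by more than sampling noise (chi-square per degree of freedom at least 10.9).

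Symbols matched 51745 of 56205 identifiers. Counts were fitted in R 4.3.3 with edgeR 4.0.16 (robust quasi-likelihood test, TMM, filterByExpr), and a standard error is the absolute log2 fold change over the square root of F. CPM use TMM-scaled library sizes. Ratios used log2 CPM (prior count 2) and an exact two-sided permutation test over 924 assignments, with Benjamini-Hochberg adjustment over 12 ratios and a threshold of 0.05. Lengths, positions and shared 50-base stretches came from GENCODE M21 (GRCm38). The table holds identifiers newer than that annotation.

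The 32 genes and the lists were chosen with earlier results of these data known. Named were all 32 genes and, of the other pathway genes, the 3 called with the largest and the 3 with the smallest log2 fold change at a mean log2 CPM of at least 1. A gene that this rule names is not reported here. Alternatives were other normalizations, filters and thresholds, DESeq2 1.42.0, limma-voom (limma 3.58.1), a non-robust fit, a replicate block, a prior count of 0.5 and leaving out each library. Leaving out 2 libraries together was added after the data were seen. On simulated counts the fit recovered 74.8% of genes changed by a log2 fold change of 1 and 97.8% of those changed by 2, among 13298 genes, and made 0 calls of 13302 genes with no change.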

Additional observations from a re-analysis of the deposited data

Results flagged for a closer look

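In each gene and group, the distance from the end library to the next was divided by the range of the 6. Of 64 such groups, 4 passed Dixon's 95% critical value, and chance gives about 1 in 20, here 3.2. Fibrotic replicate 4 gave 3 of them. Its Nr1h3 level of 77.8 CPM lay under the 97.2 to 108 CPM of the rest of its group (gap of 0.674 of the range on the log2 scale). Its Agpat2 level of 505 CPM lay under their 734 to 831 CPM (0.749). Its G6pdx level of 19.7 CPM lay above their 4.28 to 7.60 CPM (0.626). The fourth was Elovl1 in FLO replicate 2, at 41.8 CPM under the 49.1 to 50.8 CPM of the other FLO libraries (0.827).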

How the results depend on the processing

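The count of genes called lower stayed at 12 to 15 under every alternative run, and at 13 to 14 when 1 library was left out. The count called higher ran from 3 (without fibrotic replicate 3) to 6 (without fibrotic replicate 4), and was 3 at an absolute log2 fold change over 1. The median log2 fold change ran from -0.66 to -0.40 when 1 library was left out, and was -0.25 without FLO replicate 3 and fibrotic replicate 4 together. Without normalization factors the median of all tested genes moved from 0.03 to 0.20, and Nr1h3 turned to 0.04. The Dgat1 to Dgat2 ratio turned to -0.05 without fibrotic replicate 4 and to -0.01 without FLO replicate 4, and ran up to 0.10. The count of other pathway genes called, 17, was 34 at an adjusted p of 0.05 with no fold limit, 6 at an absolute log2 fold change over 1, and 17 to 20 when 1 library was left out. The causes were not tested.

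With the replicate number as a block, 13 genes were called lower and 4 higher, and the median was -0.57. Srebf1 (-2.16), Scd1 (-4.30) and Mogat1 (-1.81) kept their calls, Scd2 (adjusted p = 0.0155) and Elovl3 (0.0555) lost theirs. The numbers are not shown to pair the mice: same-numbered libraries correlated by -0.162 to 0.104 in their deviations from the group means. Genes with few counts, such as Pnpla3 (2 to 16 counts in fibrotic libraries), are limited by depth.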

Other observations

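Enzymes that complete each round of elongation moved in different directions, and Cyb5a, which brings electrons to the desaturases, fell like Cyb5r3. Hacd2, Tecr and Cyb5a were chosen after their values were seen and lie outside the rule for named genes. Hacd2, a dehydratase of the elongation cycle, rose by a log2 fold change of 0.78 (SE 0.08, edgeR adjusted p = 2.04e-06), and Tecr, the reductase that ends the cycle, fell by 0.73 on the log2 scale (SE 0.11, edgeR adjusted p = 4.09e-05). Cyb5a, the cytochrome b5 that the desaturases draw on, fell by 0.69 (SE 0.12, edgeR adjusted p = 0.000152). For Hacd2, Tecr and Cyb5a the groups did not overlap. Hacd1, Hacd3, Hacd4 and Hsd17b12 of the elongation cycle were not called (log2 fold change 0.48, 0.48, 0.68 and -0.41).

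Some of the other calls, also chosen after their values were seen, were of mitochondrial enzymes. Mbtps2, Rpia, Lpin3 and Agpat5 were called higher as well (log2 fold change 0.59, 0.80, 0.82 and 0.55) and Acsl3 lower (-0.51). Not all of these are mitochondrial. Mcat, Pdha1, Pdhb, Cs, Me2, Gpat2 and Acss3, which are mitochondrial, were not called (log2 fold change -0.07, 0.10, 0.07, 0.36, 0.59, -0.03 and -0.60). The other pathway genes as a whole were called at 28.8%, against 29.9% of all tested genes. Mdh2, mitochondrial malate dehydrogenase, stood at a mean of 489 ± 45.5 CPM (SD, n = 6) in fibrotic livers and 303 ± 13.2 CPM in FLO livers (log2 fold change 0.69, SE 0.08, edgeR adjusted p = 5.81e-06). Oxsm, the condensing enzyme of mitochondrial fatty acid synthesis, rose by a log2 fold change of 0.70 (SE 0.11, edgeR adjusted p = 8.75e-05). Pgs1, which starts cardiolipin synthesis, rose by 0.92 (SE 0.13, edgeR adjusted p = 4.23e-05).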
